A study of Mus musculus with 32 samples.

Results

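The comparison described here is that of Y721F macrophages given CSF-1 for 180 min with the same cells at 0 min, that is, starved of CSF-1 overnight and not restimulated. It rests on 4 of the 32 arrays of the series, 2 at each time, chosen by their labelled line and time. The labels number the arrays of a time I and II, and the series' design text calls these biological replicates. In the text series I and series II stand for the pair of Y721F arrays, at 180 and at 0 min, that carry the same number.

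Y721F is a mouse macrophage line on the M-/- background whose CSF-1 receptor lacks Tyr-721, and WT is the line on the same background whose receptor keeps it. Cells were cultured with newborn calf serum and 120 ng/mL of human recombinant CSF-1, and RNA preparations with an integrity number above 9.5 were hybridised to Affymetrix Mouse Gene 1.0 ST arrays. The groups used are Y721F at 180 min and at 0 min, Y721F at 20 and 60 min of the same time course, WT at 180 and 0 min, and, from the separate steady-state experiment, Y721F grown continuously in CSF-1 and Y721F starved of it. Each group has 2 arrays. The receptor is tied to its line, so what the missing tyrosine does and what else differs between the lines cannot be told apart. Whether a line is 1 clone or a pool is not given in the sources used here, and nor is the concentration of the restimulation as distinct from the culture.

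CSF-1 is the growth and survival factor of macrophages, and its receptor is a tyrosine kinase, encoded by Csf1r, whose phosphorylated tyrosines recruit signalling proteins. Tyr-721 is known as the docking site of the regulatory subunit of phosphoinositide 3-kinase (PI3K), which feeds AKT and, through AKT, restrains the FOXO transcription factors. Other receptor tyrosines lead to the RAS and ERK cascade, which induces AP-1, ETS and MYC factors together with its own inhibitors.

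Values are log2 signals, so that a difference of 1 is a doubling on this scale. Array medians ran from 5.97 to 6.22, and the arrays of a group correlated with Pearson r between 0.986 and 0.996 across the series. Csf1r, the receptor gene, read 13.01 and 12.86 at 180 min, against 13.00 and 12.83 at 0 min (series I and II in each case), a difference of 0.02 (SE 0.12, adjusted p = 0.978). Its level was high and did not separate the times, and a probe set cannot tell the mutated receptor from the intact one. Of 16 macrophage markers 0 read below 4.48, the 20th percentile of signal, and the same held for 9 dendritic cell and 12 osteoclast markers. Below it were 6 of 15 granulocyte and mast cell, 5 of 11 lymphocyte and 2 of 12 fibroblast markers. This measure does not set macrophages apart from dendritic cells or osteoclasts.

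Of 300 microRNA loci of the array 7 were called higher at 180 min with a block for the array series, defined below. That is 2.33%, against 2.65% of all genes. They include a pair that carries the same seed and members of a second family, and were singled out after their values were seen. Mature sequences of some of them are shown with the seed, bases 2 to 8, in capitals (RefSeq, GRCm38.p6). Through the seed a microRNA recognises its targets, and it sorts the loci shown into families. The first 2 come from neighbouring genes on the minus strand of chromosome X, at chrX:19146307-19146329 and chrX:19146901-19146923.
miR-221-3p: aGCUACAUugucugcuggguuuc
miR-222-3p: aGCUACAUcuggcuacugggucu
The next 2 are processed from the cluster hosted by Mir17hg on the plus strand of chromosome 14, at chr14:115044048-115044070 and chr14:115044358-115044380, and the last lies on the minus strand of chromosome 6, at chr6:31062673-31062694.
miR-19a-3p: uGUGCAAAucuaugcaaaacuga
miR-19b-3p: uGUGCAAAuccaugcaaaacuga
miR-29a-3p: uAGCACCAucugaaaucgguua

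Promoter windows of 4 genes that recur below are shown with the letters a search found in them. Each runs from 250 bases before to 50 after the gene's start (RefSeq, GRCm38.p6, all on the plus strand). The capitals mark TGANTCA, the core of the AP-1 site, in Plaur and Il1rn, CACGTG, the E-box read by MYC and its relatives, in Tsr1, and TGTTTAC, a forkhead core, in Ypel3, where it stands on the opposite strand. The windows are chr7:24462233-24462532 (Plaur, match at -69 from the start), chr2:24336610-24336909 (1 of 3 windows of Il1rn, at -141), chr11:74897830-74898129 (Tsr1, at 24) and chr7:126776713-126777012 (Ypel3, at 25).
Plaur: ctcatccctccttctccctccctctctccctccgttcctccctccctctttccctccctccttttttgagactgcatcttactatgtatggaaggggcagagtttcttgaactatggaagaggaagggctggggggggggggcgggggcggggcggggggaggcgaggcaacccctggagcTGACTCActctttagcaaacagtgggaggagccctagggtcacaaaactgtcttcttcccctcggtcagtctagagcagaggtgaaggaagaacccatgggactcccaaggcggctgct
Il1rn: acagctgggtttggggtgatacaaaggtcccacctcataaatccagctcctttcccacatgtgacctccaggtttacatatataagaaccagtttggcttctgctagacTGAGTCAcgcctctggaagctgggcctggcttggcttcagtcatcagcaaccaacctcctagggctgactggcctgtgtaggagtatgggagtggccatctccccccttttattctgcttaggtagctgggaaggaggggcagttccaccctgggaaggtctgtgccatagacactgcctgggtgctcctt
Tsr1: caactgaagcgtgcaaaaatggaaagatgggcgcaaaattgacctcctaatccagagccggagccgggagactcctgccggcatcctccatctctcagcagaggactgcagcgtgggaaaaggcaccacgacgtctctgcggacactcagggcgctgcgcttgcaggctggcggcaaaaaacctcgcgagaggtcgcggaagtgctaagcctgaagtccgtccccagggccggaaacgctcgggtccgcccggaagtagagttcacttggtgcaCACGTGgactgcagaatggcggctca
Ypel3: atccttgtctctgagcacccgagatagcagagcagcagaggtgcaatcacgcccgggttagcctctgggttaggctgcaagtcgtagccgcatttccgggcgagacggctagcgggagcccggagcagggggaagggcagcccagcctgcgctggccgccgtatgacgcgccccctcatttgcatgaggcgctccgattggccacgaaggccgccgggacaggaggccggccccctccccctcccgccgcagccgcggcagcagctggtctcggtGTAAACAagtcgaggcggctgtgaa

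After 180 min of CSF-1 the largest rises in Y721F were those of the chemokine Ccl2 and the AP-1 subunit Fosl1, and the largest fall that of the stress gene Trp53inp1. A gene is called where its limma p, adjusted by Benjamini-Hochberg over all 19938 genes, is under 0.05 and its fold above 1.5, and "rose" and "fell" are used in that sense. By this test 34 genes rose (0.171% of those tested) and 18 fell (0.0903%), 52 in all (0.261%), and 2656 had an unadjusted p under 0.05. With a block for the series number of each line, which compares each 180 min array with the 0 min array of its own series, the same rule called 1074 genes (5.39%), 528 higher (2.65%) and 546 lower (2.74%), and all 52 were among them. Genes called only in that fit are described as called with the series block. Counts of list members with the block that carry no share below are to be read beside the 2.65% higher and 2.74% lower of all genes.

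Series I moved further than series II. The SD of the change over all genes was 0.399 in series I and 0.271 in series II, with a median change of -0.01 in the fit. Of the 1074 genes called with the block, all had the same sign in both series. Over all 19938 genes 6190 were higher and 6835 lower in both. The block favours genes whose series moved alike, so the shared sign is no measure of how well the calls repeat. Of the 1074, 987 had the larger change in series I, a share not taken over all genes. The wide list rests on the series I arrays: with the block, 22 genes were called without the 0 min array of series I and 13 without its 180 min array, against 1164 and 821 without the corresponding arrays of series II. Without the block 0 genes were called when 180 min I, 180 min II or 0 min I was left out (1521, 2173 and 1375 at an unadjusted p under 0.05) and 86 when 0 min II was. So each call made without the block below is lost in at least 3 of those 4 omissions. Ccl2, Dusp4, Fosl1, Il1rn, Mir221, Plaur and Tnfrsf12a were called in all 4 omissions with the block, with a largest adjusted p between 0.00427 and 0.0398.

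**Figure D1:**
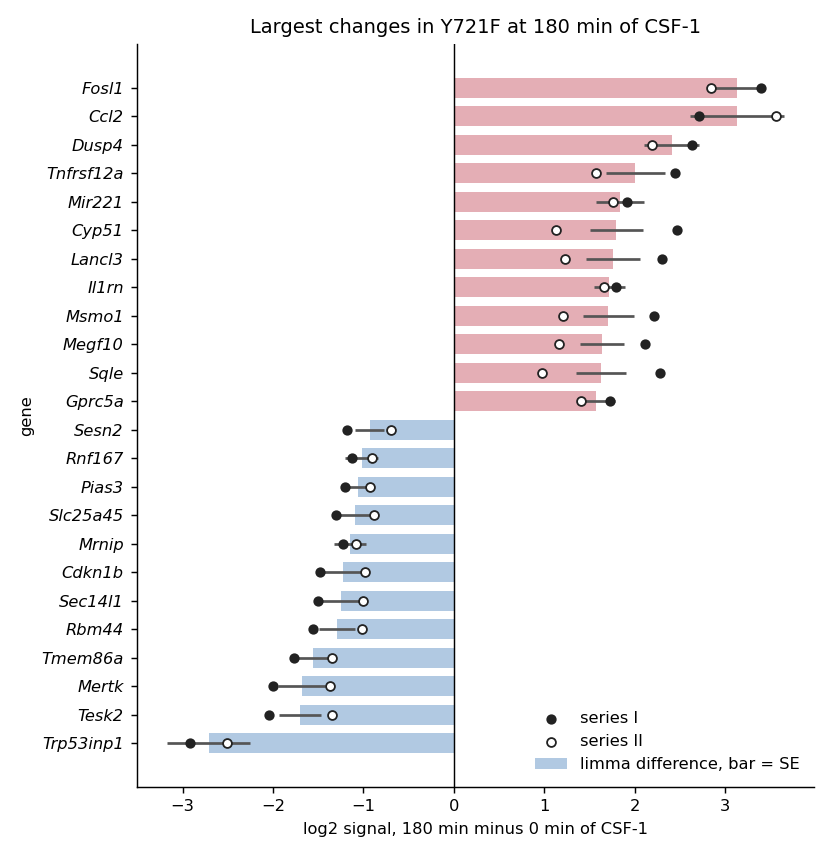
The 12 largest rises and 12 largest falls among called genes in Y721F. Bars give the limma difference in log2 signal, 180 min minus 0 min, with its standard error as a line; filled points are series I and open points series II. Fosl1 and Ccl2 lead at 3.13 each and Trp53inp1 stands lowest at -2.71; for Cyp51, Msmo1 and Sqle the series I point lies well outside the series II point, whereas for Mir221 and Il1rn both lie close together.

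Feedback genes of the ERK cascade, most of them inhibitors that it induces against itself, were higher as a group. Of 15 such genes 2 rose and 10 were called with the series block (66.7%, against 2.65% of all genes), and the median change was 0.97, against -0.01 over all genes. Without 0 min I or 180 min I that count was 1 each, without 180 min II 3 and without 0 min II 9. Dusp4, a nuclear phosphatase of ERK and related kinases, read 9.17 and 8.98 at 180 min, against 6.53 and 6.79 at 0 min. Both arrays at 180 min lay above both at 0 min, and Dusp4 rose 5.33-fold (2.41, SE 0.30, adjusted p = 0.0157). Spry4, a Sprouty protein that blocks RAS activation, read 6.70 and 6.90 at 180 min, against 5.92 and 5.66 at 0 min, and rose by 1.01 (SE 0.17, adjusted p = 0.0458). It lost that call after quantile normalization (adjusted p = 0.0514) and in 3 of the 4 omissions with the block. Called with the series block were Spred2, which also restrains RAS and RAF, at 1.38 (adjusted p = 0.0147), and Rasa2, a GTPase-activating protein for RAS, at 1.25 (adjusted p = 0.00615). Of the paralogues of Spry4, Spry2 measured 0.69 and was called with the block (adjusted p = 0.0253), and Spry1 measured 0.34 (adjusted p = 0.398, 0.164 with the block).

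Of 7 ETS factors that act downstream of ERK, 0 rose and 2 were called with the block, 0 of them without 0 min I or 180 min I. Etv5 read 8.66 and 8.64 at 180 min, against 6.24 and 6.50 at 0 min, a difference of 2.28 (adjusted p = 0.132, 0.00509 with the block). Its groups lay well apart, although the SE of 0.63, taken over the whole time course, was large. Ets2 measured 1.21 (adjusted p = 0.0732, 0.0084 with the block).

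Among 26 immediate early transcription factors only Fosl1 rose, and 7 were called higher with the block (2 without 0 min I, 1 without 180 min I). Fosl1, which encodes the AP-1 subunit FRA-1, read 10.05 and 9.99 at 180 min, against 6.65 and 7.14 at 0 min. The arrays at 180 min lay almost on each other and far above both at 0 min, a rise of 8.72-fold (3.13, SE 0.31, adjusted p = 0.00451). Myc, the growth-promoting E-box factor, read 9.42 and 8.83 at 180 min, against 7.04 and 6.84 at 0 min, a difference of 2.18 (adjusted p = 0.148, 0.00131 with the block). Its antagonists Mxd4 and Mxd1 went the other way at -1.29 and -1.0, each called with the block only (adjusted p = 0.0133 and 0.018). Maff, a small MAF protein, measured 1.42 and Fos 0.98, called with the block (adjusted p = 0.00569 and 0.0408). Egr1, the zinc finger factor of the first minutes, read 7.02 and 6.76 at 180 min, against 6.56 and 6.24 at 0 min, and was not called (0.49, adjusted p = 0.553).

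The secreted signals that were higher were few and led by monocyte chemoattractants. Ccl2, which draws monocytes through the receptor CCR2, read 11.34 and 11.17 at 180 min, against 8.63 and 7.61 at 0 min. Its 180 min arrays lay over 2 units above either 0 min array, a rise of 8.78-fold (3.13, SE 0.52, adjusted p = 0.0421). Ccl7, its neighbour in function, read 10.50 and 9.10 at 180 min, against 7.61 and 6.36 at 0 min. The difference of 2.81 was almost the same in both series while their levels differed by over 1 unit, and it was called with the block only (adjusted p = 0.241, 0.0013 with the block). Cxcl2, which draws neutrophils, measured 1.82 (0.0199 with the block). Of 18 chemokines 1 rose and 3 were called with the block, 2 of them without 0 min I or 180 min I.

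Of 15 inflammatory cytokines and their blockers 1 rose, Il1rn, and Tnf was the other called with the block (Il1rn alone without 0 min I or 180 min I). Il1rn encodes the natural antagonist of the IL-1 receptor. It read 10.44 and 10.54 at 180 min, against 8.65 and 8.88 at 0 min, a rise of 3.31-fold (1.72, SE 0.17, adjusted p = 0.00451), and its groups were tight and well apart. Tnf, the gene of the cytokine TNF, read 10.63 and 11.30 at 180 min, against 8.64 and 9.64 at 0 min, a difference of 1.83 (adjusted p = 0.0794, 0.00471 with the block). Il1b, the agonist that the Il1rn product opposes, read 5.15 and 5.80 at 180 min, against 5.59 and 5.79 at 0 min (-0.21, adjusted p = 0.922). Il6 measured -0.17, Il12b 0.07 and Il10, an anti-inflammatory cytokine, 0.66, none of them called in either fit (adjusted p = 0.787, 0.900 and 0.613). Nos2, the inducible nitric oxide synthase of classically activated macrophages, measured 0.01, and Arg1, the arginase of alternatively activated ones, 0.24 (adjusted p = 0.990 and 0.856). Of 15 markers of classical (M1) activation 0 rose and 2 were called with the block, Ptgs2 and Tnf. Of 20 markers of alternative (M2) activation 1 rose, Il1rn, and Myc was the other called with the block.

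Enzymes and receptors of prostaglandin and leukotriene signalling split. Ptgs2, which encodes the prostaglandin-forming COX-2, read 9.69 and 9.61 at 180 min, against 6.43 and 7.19 at 0 min. The difference of 2.84 was called with the block only (SE 0.63, adjusted p = 0.0745, 0.00288 with the block). The prostaglandin E2 receptor Ptger4 measured 0.67 and its relative Ptger2 -0.81, and the leukotriene enzyme Alox5 -0.74 (adjusted p = 0.0484, 0.0361 and 0.0334 with the block). In all, 0 of 13 rose or fell, 2 were higher and 3 lower with the block, and 0 of them without 0 min I or 180 min I.

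The receptor and the protease of the urokinase system, which cells use to cleave matrix, were both higher. Plaur, the receptor that holds urokinase at the cell surface, read 9.97 and 10.27 at 180 min, against 8.47 and 8.82 at 0 min, and rose 2.78-fold (1.47, SE 0.17, adjusted p = 0.0136). The AP-1 core shown above for Plaur stood in 3 of 22 risen genes with a promoter window (13.6%), Plaur, Il1rn and Msmo1, against 8.08% of 15614 genes. Its share was similar in fallen genes, 2 of 16 with a window (12.5%). Among genes called higher with the block it was 7.77%, near that of all genes. Plau, urokinase itself, read 9.02 and 8.83 at 180 min, against 6.76 and 6.73 at 0 min. The arrays of each time were close together, yet the difference of 2.18 was called with the block only (SE 0.71, adjusted p = 0.185, 0.00292 with the block). Adam8, a membrane protease, and Mmp13, a collagenase, measured 1.12 and 0.95, called with the block (adjusted p = 0.0089 and 0.0164). Of 16 matrix proteases and urokinase genes 1 rose and 5 were called with the block (1 without 0 min I or 180 min I). Among integrins Itga5 and Itgav measured 0.89 and 0.87 and Itga4 -0.87, 3 of 15 called with the block (adjusted p = 0.00558, 0.0283 and 0.0144), and 0 without 0 min I or 180 min I.

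Tnfrsf12a, the receptor of the cytokine TWEAK, read 10.17 and 9.98 at 180 min, against 7.72 and 8.41 at 0 min, and rose 4.03-fold (2.01, SE 0.33, adjusted p = 0.0421). Among growth factors and their receptors 0 of 16 rose and 6 were called with the block, and 0 without 0 min I or 180 min I. The Notch ligand Jag1 read 8.28 and 8.24 at 180 min, against 5.80 and 6.19 at 0 min (2.27, adjusted p = 0.109, 0.00378 with the block). Met, the receptor of hepatocyte growth factor, read 6.4 and 6.68 at 180 min, against 4.49 and 5.03 at 0 min (1.78, adjusted p = 0.182, 0.0191 with the block). Both had 180 min arrays clear of the 0 min arrays by over 1 unit. The FGF receptor Fgfr1 measured 0.89 and stem cell factor, Kitl, 0.83 (adjusted p = 0.00902 and 0.018 with the block). Gprc5a, an orphan G-protein-coupled receptor, rose by 1.57 (SE 0.21, adjusted p = 0.0264) and Lancl3, a LanC-like protein, by 1.76 (SE 0.30, adjusted p = 0.0458).

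Chemoattractant receptors moved in both directions. Cxcr4, the receptor of CXCL12, read 7.36 and 7.74 at 180 min, against 9.38 and 9.64 at 0 min, 3.89-fold lower (-1.96, adjusted p = 0.0722, 0.00543 with the block). Ccr1 measured 1.17, the complement receptor C5ar1 0.80 and the nucleotide receptor P2ry12 -0.73 (adjusted p = 0.03, 0.00501 and 0.0189 with the block), so that 0 of 10 rose or fell, and 2 were higher and 2 lower with the block. The G-protein regulators Rgs1 and Rgs2 diverged as well, at 1.54 and -0.61 (adjusted p = 0.0136 and 0.0226 with the block), as 2 of 9. Without 0 min I or 180 min I 0 of these 6 calls with the block remained.

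Genes of sterol synthesis, which builds cholesterol from acetyl-CoA, were higher as a group. Of 25 listed genes 20 were measured, 3 rose, 13 were called with the block (65.0%, against 2.65% of all genes), and the median change was 0.68. The group moved mostly in series I, with a median of 1.02 there and 0.36 in series II, and without 0 min I or 180 min I 0 were called with the block, without 180 min II 10. Cyp51, the lanosterol demethylase, read 9.97 and 9.66 at 180 min, against 7.50 and 8.53 at 0 min, and rose 3.48-fold (1.80, SE 0.29, adjusted p = 0.0421). Msmo1, a methylsterol oxidase, read 11.48 and 11.45 at 180 min, against 9.26 and 10.24 at 0 min, and rose by 1.71 (SE 0.28, adjusted p = 0.0421). Sqle, the squalene epoxidase, rose by 1.63 (SE 0.28, adjusted p = 0.0458). For all 3 the 0 min arrays lay further apart than the 180 min arrays. Idi1, an isomerase early in the pathway, measured 1.48 (adjusted p = 0.00423 with the block). The sterol element TCACNCCAC stood in 1 of 16 listed genes with a promoter window, Hmgcs1 (6.25%), against 1.4% of all 15614 genes with a window. Of 14 fatty acid synthesis genes 1 was called with the block, Fasn, the fatty acid synthase, at 0.77 (adjusted p = 0.0354), and 0 were called higher in each of the 4 omissions.

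Targets of the liver X receptors (LXR), which serve the export of sterols, had a median change of -0.18 (-0.30 in series I and -0.08 in series II). The efflux pumps Abca1 and Abcg1 were lower and called with the block. Abca1 read 7.15 and 7.53 at 180 min, against 9.96 and 8.12 at 0 min (-1.70, adjusted p = 0.179, 0.0176 with the block). Its 0 min arrays lay further apart than the change in series II (-0.59). Abcg1 measured -1.35 and Mylip, which marks the LDL receptor for destruction, -0.72 (adjusted p = 0.0205 and 0.0191 with the block). In all 0 of 11 LXR targets fell and 3 were called lower with the block (27.3%, against 2.74% of all genes), 0 without 0 min I or 180 min I, while 7 were lower and 3 higher in both series.

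Ribosome biogenesis genes, which build the ribosome in the nucleolus, were higher in every measured member. Of 27 listed 26 were measured, and all 26 read higher in both series, against 6190 of 19938 genes in all. The median change was 0.93 (1.16 in series I and 0.71 in series II). None passed the test without the block (0 of 26), and 15 did with it (57.7%, against 2.65% of all genes), of which 0 remained without 0 min I or 180 min I, 5 were counted without 180 min II and 9 without 0 min II. Rrs1, a ribosome assembly factor, read 8.31 and 7.52 at 180 min, against 5.84 and 6.25 at 0 min (1.87, adjusted p = 0.11, 0.0188 with the block). Tsr1, which matures the small subunit, read 9.67 and 9.18 at 180 min, against 7.29 and 7.99 at 0 min (1.78, 0.0119 with the block). Nop58, a core protein of the particles that methylate ribosomal RNA, measured 1.51 and the nucleolar GTPase Gnl3 1.44 (adjusted p = 0.0116 and 0.0226 with the block). Of 21 members with a promoter window, 6 held CACGTG (28.6%), Mybbp1a, Nop2, Pes1, Tsr1, Utp20 and Wdr43. Its share was 9.5% of 15614 measured genes with a window. It was 17.5% of the 412 with a window called higher with the block, and 11.9% of the 444 called lower. CACGTG was not confined to this list. The motif stood in 4 of 16 sterol synthesis genes with a window. It stood in 4 of 22 FOXO targets and starvation-linked genes with a window (18.2%), which were lower. Among genes with a window, 2 of 12 ERK feedback genes held it (16.7%), and 0 of 22 risen genes. Polyamine synthesis, which also serves growth, had 3 of 9 called with the block, 0 without 0 min I or 180 min I: Odc1, its first enzyme, at 1.55, the spermidine synthase Srm at 1.43 and Azin1, which protects ODC, at 0.66 (adjusted p = 0.0196, 0.0391 and 0.0119).

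**Figure D2:**
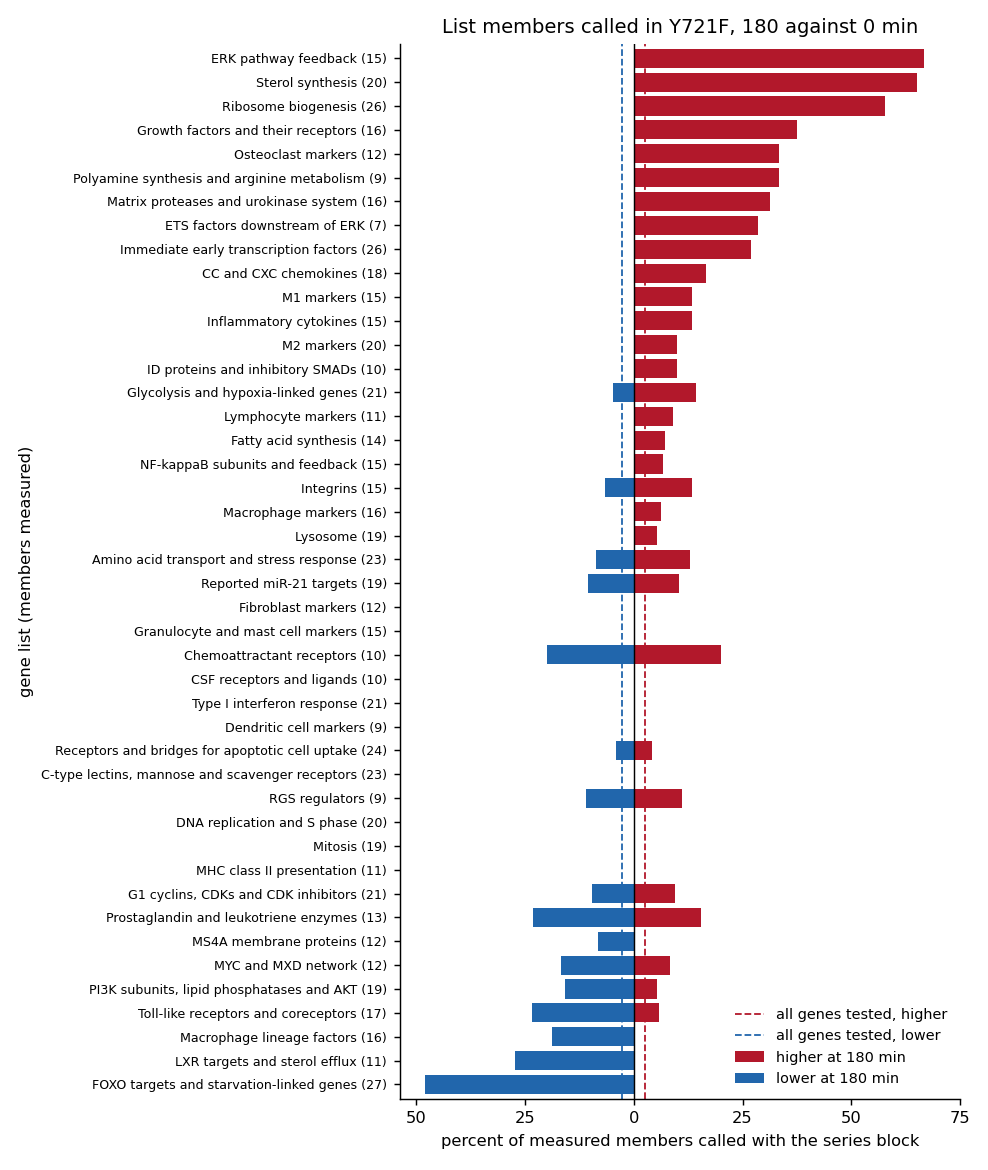
Share of the measured members of each gene list called with the series block in Y721F at 180 min, in percent, higher to the right and lower to the left. Dashed lines give the share among all genes tested, 2.65% and 2.74%; numbers beside the names are members measured. ERK feedback, sterol synthesis and ribosome biogenesis lead to the right at 66.7%, 65.0% and 57.7%, and FOXO targets to the left at 48.1%. The lists were chosen with results of these data known.

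Targets of the FOXO factors and other genes linked to starvation were lower as a group. Of 27 genes 2 fell and 13 were called lower with the block (48.1%, against 2.74% of all genes), 24 were lower in both series, against 6835 of 19938 genes in all, and the median change was -0.67. Without 0 min I or 180 min I 0 were called with the block, without 180 min II 9 and without 0 min II 12. Trp53inp1, a p53-induced promoter of autophagy and cell death, read 7.65 and 7.37 at 180 min, against 10.57 and 9.88 at 0 min. It fell 6.57-fold (-2.71, SE 0.46, adjusted p = 0.0458), the largest fall of all, and the groups lay over 2 units apart. Cdkn1b, the inhibitor p27 that holds cells in G1, read 8.76 and 8.99 at 180 min, against 10.24 and 9.97 at 0 min, and fell 2.35-fold (-1.23, SE 0.21, adjusted p = 0.0461). It lost the call with a mean-variance trend in the fit (adjusted p = 0.0549) and in 2 of the 4 omissions with the block. A second probe set of Cdkn1b gave -1.22. Called with the block were Fbxo32, the atrophy-linked ubiquitin ligase atrogin-1, and Klhl24, a Kelch protein, both at -2.03 (adjusted p = 0.00624 and 0.00833). In 22 members with a promoter window TGTTTAC stood in 5 (22.7%), Bcl2l11, Btg1, Sesn1, Txnip and Ypel3, against 3.54% of all 15614. Of these 5, Ypel3 (-1.38) and Sesn1 (-1.02) were called with the block. TGTTTAC stood in 0 of the 16 fallen genes with a window and in 4.73% of the 444 called lower with the block. The list was chosen for FOXO targets, so its share of this motif does not bear on the falls. Of the 4 motifs searched none contains another, both strands were read, and a match is a run of letters in the window and no measured site.

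Genes of PI3K itself, the enzyme that Tyr-721 is known to recruit, were called with the block only. Of 19 measured subunits, lipid phosphatases and AKT or mTOR genes 0 rose or fell, and the regulatory subunits Pik3r6 and Pik3r3 and the catalytic subunit Pik3cd were lower with the block at -1.01, -0.74 and -0.61 (adjusted p = 0.0122, 0.0194 and 0.0486), and the mTORC1 subunit Rptor higher at 0.59 (adjusted p = 0.0188). Without 0 min I or 180 min I these 4 calls dropped to 0. A pair of stress-induced inhibitors of mTORC1 fell, Sesn2, a sestrin, and Ddit4, also called REDD1, by 0.93 (SE 0.16, adjusted p = 0.0421) and by 0.73 (SE 0.12, adjusted p = 0.0458). Sesn2 read 7.0 and 7.32 at 180 min, against 8.18 and 8.01 at 0 min, and Ddit4 6.98 and 6.81 at 180 min, against 7.77 and 7.47 at 0 min. With a mean-variance trend neither was called (adjusted p = 0.0606 for Sesn2 and 0.0645 for Ddit4), and Ddit4 was not when fitted on the Y721F arrays alone (adjusted p = 0.0523). They were 2 of 23 genes of amino acid transport and stress response, of which none rose and 3 were higher with the block, led by the arginine transporter Slc7a1 at 1.11 (adjusted p = 0.0245). Among 21 glycolysis and hypoxia-linked genes 0 rose, while the lipid droplet gene Hilpda, the glucose transporter Slc2a1 and Hif1a were higher with the block at 1.64, 1.23 and 0.85 (adjusted p = 0.0193, 0.00545 and 0.00615). Egln3, an oxygen-sensing hydroxylase, was lower there at -0.61 (adjusted p = 0.0329). In both lists 0 calls with the block were left without 0 min I or 180 min I.

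The cell cycle genes that were called were those of the G1 decision. Ccnd1, the cyclin D1 that answers growth factors, read 11.27 and 11.06 at 180 min, against 9.17 and 9.09 at 0 min. The 2.03 difference was even between series, but its SE of 1.07, pooled over the lines and times, left it uncalled without the block (adjusted p = 0.47, 0.0332 with the block). Its partner kinase Cdk6 measured 1.42 and Rbl2, a relative of the retinoblastoma protein, -0.91 (adjusted p = 0.0148 and 0.0229 with the block). With Cdkn1b these were the 4 of 21 G1 genes called with the block, and 0 were without 0 min I or 180 min I. Of 20 replication genes and 19 mitotic genes 0 were called in either fit, with medians of -0.16 and -0.17.

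Mertk, a receptor tyrosine kinase for the uptake of dying cells, read 6.82 and 7.66 at 180 min, against 8.82 and 9.03 at 0 min, and fell 3.22-fold (-1.68, SE 0.26, adjusted p = 0.0364). Its 180 min arrays were uneven but both lay below the 0 min arrays. Megf10, another engulfment receptor, first described in glia, went the opposite way. It read 8.70 and 8.35 at 180 min, against 6.58 and 7.19 at 0 min, and rose by 1.64 (SE 0.24, adjusted p = 0.0339). Of 24 measured receptors and bridging molecules of apoptotic cell uptake, a list that holds Mertk but not Megf10, Mertk alone fell, 0 rose, and Itgav was the other called with the block, neither of them without 0 min I or 180 min I. The mannose receptor Mrc1 read 5.2 and 5.38 at 180 min, against 6.47 and 5.55 at 0 min (-0.72, adjusted p = 0.893, 0.0591 with the block), and 0 of 23 lectins and scavenger receptors were called in either fit.

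Of 17 Toll-like receptors and coreceptors, which sense microbial molecules, 0 fell and 4 were lower with the block. Tlr8 measured -0.93, Tlr9 -0.85 and Tlr6 -0.64 (adjusted p = 0.0136, 0.0393 and 0.0194), and the coreceptor Cd14 0.82 (adjusted p = 0.00806). Without 0 min I or 180 min I 0 of the 4 lower ones were called. Of 16 factors of macrophage lineage Maf, Irf8 and Spic measured -0.99, -0.87 and -0.73 (adjusted p = 0.0212, 0.0157 and 0.03 with the block), and the lineage master factor Spi1 0.02. None of these 16 was called without the block, or with it when 0 min I or 180 min I was left out. Ms4a7 was the 1 of 12 MS4A membrane proteins called with the block (-0.66, adjusted p = 0.0476), and 0 of 21 interferon response and 0 of 11 MHC class II genes were called in either fit. Nfkbia, which restrains NF-κB, was 1 of 15 genes of that system called with the block, at 0.78 (adjusted p = 0.0207), and 0 were called higher in each of the 4 omissions.

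Markers of other cells were mostly not called. Of 15 granulocyte and mast cell, 12 fibroblast and 9 dendritic cell markers 0 were called in either fit. The 1 of 11 lymphocyte markers called with the block, Il7r, read 11.41 and 10.91 at 180 min, against 10.37 and 9.91 at 0 min (1.02, adjusted p = 0.503, 0.00378 with the block), while the T and B cell genes Cd3e and Cd79a measured 0.03 and 0.05. Of 12 osteoclast markers, 4 were higher with the block, the fusion proteins Ocstamp and Dcstamp at 1.44 and 1.08, the RANK receptor Tnfrsf11a at 0.87 and the proton pump subunit Atp6v0d2 at 0.81 (adjusted p = 0.000703, 0.0328, 0.0129 and 0.00615). The count was 1 without 0 min I or 180 min I. Ctsk, the osteoclast collagen protease, measured 0.12 and Nfatc1, the osteoclast master factor, -0.14. In these bulk samples fewer cells of a kind and less RNA per cell cannot be told apart.

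The remaining large falls were of genes with varied roles. Tesk2, a kinase of the actin regulator cofilin, read 6.31 and 6.63 at 180 min, against 8.36 and 7.98 at 0 min, and fell 3.25-fold (-1.70, SE 0.23, adjusted p = 0.0279). Tmem86a, a lysoplasmalogenase, fell 2.95-fold (-1.56, SE 0.19, adjusted p = 0.0157). The RNA-binding protein Rbm44, the lipid-binding protein Sec14l1, the repair factor Mrnip, the mitochondrial carrier Slc25a45, the STAT3 inhibitor Pias3 and the ubiquitin ligase Rnf167 fell by 1.29, 1.25, 1.15, 1.09, 1.06 and 1.02 on the log2 scale, with adjusted p between 0.0364 and 0.0461. With a mean-variance trend Sec14l1, Pias3 and Rnf167 lost the call (adjusted p = 0.0549, 0.0613 and 0.0618), and Sec14l1 lost it after quantile normalization as well (adjusted p = 0.0514).

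Mir221 was the 1 microRNA locus of 300 that rose. It read 7.35 and 7.43 at 180 min, against 5.43 and 5.67 at 0 min, a rise of 3.58-fold (1.84, SE 0.27, adjusted p = 0.0339), and its change was alike in both series (1.92 and 1.76). Mir222, which shares its seed, read 6.44 and 5.95 at 180 min, against 5.11 and 5.04 at 0 min (1.12, adjusted p = 0.143, 0.00378 with the block). Of the chromosome 14 cluster, Mir17hg, its host transcript, read 6.28 and 6.16 at 180 min, against 4.82 and 5.19 at 0 min (1.21, 0.0112 with the block). Mir19a, Mir18 and Mir19b-1 of the same cluster measured 1.35, 1.17 and 0.91, and Mir29a 0.78 (adjusted p = 0.0156, 0.0336, 0.02 and 0.00558 with the block). Mir340 was the 1 called lower, at -0.65 (adjusted p = 0.0305 with the block). The 7 loci higher with the block are a share of 300 close to the 2.65% of all genes, 4 of the 7 lie in 1 cluster, and a probe set here reads the locus or its precursor and not the mature microRNA. The signals of Mir19b-1, Mir29a and Mir340 averaged below the 20th percentile of 4.48. These loci were singled out after their values were seen.

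The series concerns microRNA-21, so 21 of its reported targets were listed, of which 19 were measured. 0 rose or fell, and 2 were lower and 2 higher with the block, 0 of them without 0 min I or 180 min I. Pdcd4, a translation inhibitor, read 8.42 and 7.42 at 180 min, against 9.71 and 8.73 at 0 min (-1.30, adjusted p = 0.296, 0.0494 with the block). The difference was nearly the same in both series, whose levels stood 1 unit apart. Btg2, an antiproliferative factor, measured -1.38 (0.022 with the block), while Jag1 and Spry2, given above, were higher. The locus of microRNA-21 itself was not analysed here.

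Set against 60 min, genes of the early response were lower at 180 min. By limma 6 genes differed between these times in Y721F (0.0301%), 5 lower at 180 min (0.0251%) and 1 higher (0.00502%), and 121 with the block (0.607%), 78 lower (0.391%) and 43 higher (0.216%). The orphan nuclear receptor Nr4a1 read 7.48 and 7.81 at 180 min and measured -3.34 against 60 min (SE 0.34, adjusted p = 0.00333). Egr1, the AP-1 subunit Fosb, the adhesion protein Flrt3 and the small GTPase Rhob measured -2.97, -2.76, -2.0 and -1.77 against 60 min, with adjusted p between 0.00333 and 0.0161. Bcl6, a transcriptional repressor and FOXO target, was the 1 that was higher, by 1.29 (SE 0.13, adjusted p = 0.00333), having read lower at 60 min (-0.74 against 0 min) and slightly higher at 180 min (0.55). When 1 array was left out the count ran from 0, without 180 min I, to 17, without 60 min II. With the block 10 of 26 immediate early factors were lower at 180 than at 60 min, and 0 higher.

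Other genes had not faded. Against 0 min, with the 0 min arrays shared by both values, Ccl2 measured 3.06 at 60 min and 3.13 at 180 min, Fosl1 3.04 and 3.13, Plaur 1.63 and 1.47, and Cdkn1b -1.20 and -1.23. Later genes measured little at 60 min: Met 0.19 and then 1.78, Ccnd1 0.55 and 2.03, Trp53inp1 -0.56 and -2.71, Mertk -0.16 and -1.68, and Klhl24 -0.33 and -2.03. Of these, Mertk and Trp53inp1 were lower at 180 than at 60 min with the block (-1.52 and -2.15, adjusted p = 0.0142 and 0.0309, and 0.149 and 0.289 without it). The steps of Met, Ccnd1 and Klhl24 from 60 to 180 min were not called in either fit (adjusted p = 0.0856, 0.211 and 0.0508 with the block). Ribosome biogenesis genes had a median change of 0.19 at 60 min and 0.93 at 180 min, although 0 of 26 were called between these times in the blocked fit.

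**Figure D3:**
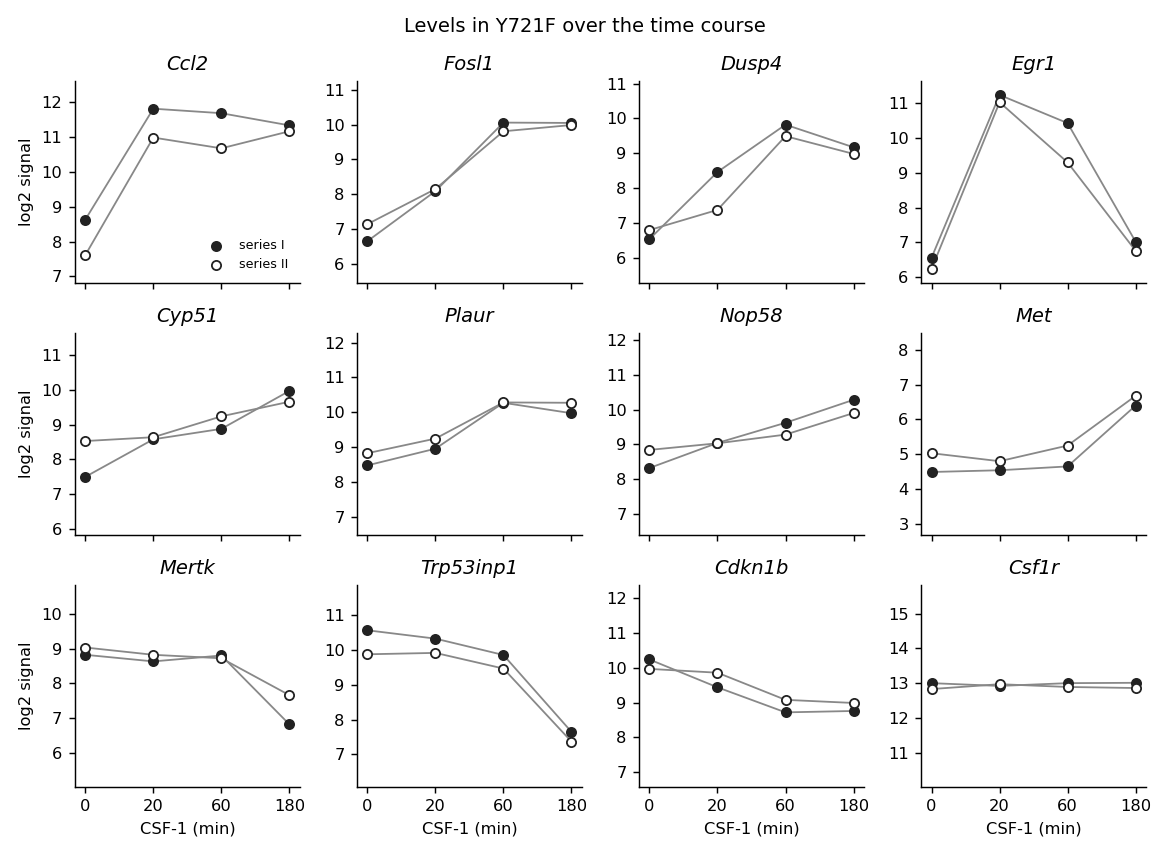
Log2 signal of 12 genes in Y721F at 0, 20, 60 and 180 min of CSF-1, filled points for series I and open points for series II, with panels of equal height in log2 units and the time axis not to scale. Egr1 peaks and is back near its 0 min level by 180 min (7.02 and 6.76, against 6.56 and 6.24), and Ccl2 and Fosl1 stay high. Met, Mertk and Trp53inp1 move mainly after 60 min, a step not called in either fit for Met, and Csf1r is level.

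Whether Y721F answered differently from WT at 180 min was tested as the difference of the changes, Y721F minus WT, with 4 arrays of each line. By limma 0 genes were called (0%), also with the block, with 277 genes at an unadjusted p under 0.05 (834 with the block) and 72 (0.361%) past the cutoff of the series' design text, fold above 1.5 with unadjusted p under 0.05. The comparisons of the lines share no array, but both come from 1 fit with the same estimate of each gene's spread. Genes with little spread are thus favoured in both lists. Of the 52 genes called in Y721F, 41 were called in WT in the same direction (78.8% of the Y721F list and 9.51% of the 431 of WT, themselves 2.16% of all genes). With the block 801 were (74.6% of 1074 and 51.4% of the 1557 of WT, 7.81% of all genes), and 0 were called in the opposite direction. The genes given next are those with the largest gaps either way among genes called at 180 min with the block whose difference had an unadjusted p under 0.05, and none of these differences was called. Megf10 measured 1.64 in Y721F, against 0.18 in WT, and the phosphatase Ppm1e and the GTPase Rhou 1.04 and 1.63 in Y721F, against -0.20 and 0.59 in WT, differences of 1.46, 1.24 and 1.04. In the other direction the membrane protein Tm4sf1 measured 1.24 in Y721F, against 3.09 in WT, the survival factor Bcl2l1 1.05 against 1.97 and Cstad -0.84 against 0.10, differences of -1.85, -0.92 and -0.94. Gaps that missed that unadjusted p included -1.55 in Ccl7, -1.28 in Met, -1.23 in Ccnd1 and -1.08 in Spred2 (unadjusted p = 0.307, 0.141, 0.432 and 0.096). For each of these 6 the adjusted p of the difference without the block was 1. Arg1, given whatever its value, measured 0.24 in Y721F, against 2.41 in WT (-2.17, unadjusted p = 0.000388, adjusted p = 1, 0.0905 with the block). In Y721F it read 5.43 and 5.92 at 180 min, against 5.14 and 5.73 at 0 min, all below the lowest array median of 5.97. Spry4, called in Y721F at 1.01, measured 0.12 in WT, a difference of 0.89 (SE 0.24, unadjusted p = 0.0034) that was not called in either fit.

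**Figure D4:**
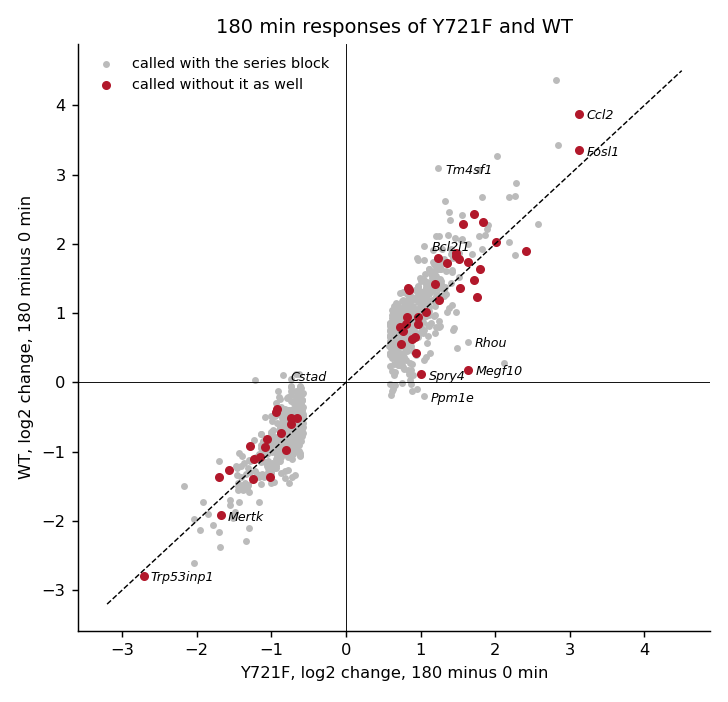
Change in log2 signal at 180 min against 0 min in Y721F (horizontal) and WT (vertical), for the 1074 genes called in Y721F with the series block; red points are the 52 called without it as well, and the dashed line marks equal changes. The gap near 0 on the horizontal axis comes from choosing genes by their Y721F call. Megf10, Ppm1e and Rhou lie to the right of the line at 1.64, 1.04 and 1.63 in Y721F, against 0.18, -0.20 and 0.59 in WT, and Tm4sf1 above it.

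A last question was which part of the 180 min answer persists in cells kept in CSF-1. In the steady-state experiment 985 genes differed between Y721F grown in CSF-1 and starved Y721F (4.94%), 693 higher (3.48%) and 292 lower (1.46%), from arrays not used above. Quantile normalization moved that split to 511 higher and 369 lower, and without the starved array II the count was 229. Of the 52 genes of 180 min, 15 were called in the same direction there (28.8% of the 52 and 1.52% of the 985), 12 higher and 3 lower, and 0 in the opposite one. Grown minus starved, Ccl2 measured 3.50 (SE 0.35, adjusted p = 6.26e-05), Dusp4 3.35 (SE 0.24, adjusted p = 3.54e-06), Megf10 1.58 and Mertk -2.81 (SE 0.17, adjusted p = 6.25e-07). Fosl1 measured 0.95, below its 3.13 at 180 min. Cdkn1b (-0.01), Nop58 (0.12), Jag1 (0.06) and Klhl24 (-0.26) showed no called difference between grown and starved cells. As lists, 0 of 26 ribosome biogenesis genes were called higher in grown cells, where their median difference was 0.11, against 15 of 21 glycolysis genes with a median of 1.41, a list whose median at 180 min was 0.12. Sterol synthesis had 5 of 20 higher, with a median of 0.92.

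With the block 210 genes were called the same way in both settings (19.6% of 1074 and 18.5% of the 1134 of grown against starved, 5.69% of all genes) and 13 the opposite way. The 13 were looked at after their values were seen. Egln3 measured -0.61 at 180 min and 2.71 grown minus starved, Cysltr1, a leukotriene receptor, -0.88 and 1.53, Lpin1, a phosphatidate phosphatase, -0.94 and 1.13, and Sesn2 -0.93 and 0.97. Selenbp1 and Selenbp2, near-identical genes whose probe sets may share signal, measured -0.88 and -0.65 at 180 min and 2.15 and 1.98 in grown cells. Of the 13, Myo10, a filopodial myosin, and the zinc exporter Slc30a1 were higher at 180 min (0.85 and 0.87) and lower in grown cells (-1.20 and -0.62).

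**Figure D5:**
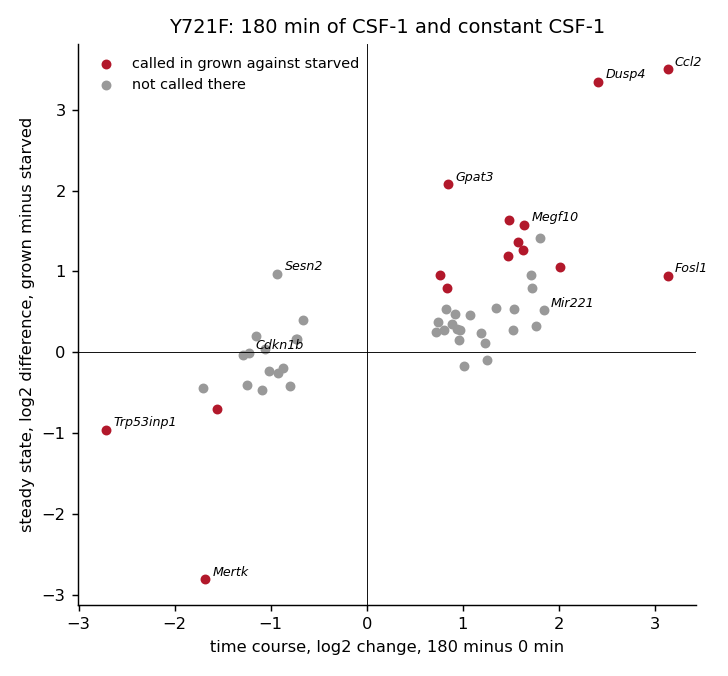
The 52 genes called in Y721F at 180 min, with their change in log2 signal at 180 min against 0 min (horizontal) and their difference grown in CSF-1 minus starved in the steady-state experiment (vertical). Red points are the 15 called in both. Ccl2 and Dusp4 stand high on both axes at 3.50 and 3.35 in grown cells and Mertk low on both, Fosl1 and Cdkn1b are near 1 and 0 on the vertical axis, and Sesn2 lies on opposite sides (-0.93 and 0.97).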

How the data were processed

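Total RNA of 32 samples was measured on 1-colour arrays, and the 4 Y721F arrays at 180 and 0 min carry this comparison. The authors deposited log2 signals for 35556 probe sets; the scale was read from the values, and how the signals were background-corrected and normalized, and on which genome build, is not given in the sources used here. Probe sets that the array's annotation pairs with 1 gene were used (21789), and where a gene had several the one with the highest mean stood for it, which left 19938 genes.

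The 16 time-course arrays entered 1 limma fit (lmFit and eBayes, limma 3.58.1, R 4.3.3) with 1 mean for each group, leaving 8 residual degrees of freedom beside a prior of 3.48; the steady-state arrays were fitted separately. With a block for the series number of each line the fit had 6 residual degrees of freedom. Deviations of same-numbered Y721F arrays from their group means correlated between 0.353 and 0.648 over the 6 pairs of times, so the numbers were taken to pair the arrays. Precision is limited by the number of arrays. The code was tested on simulated data.

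Named genes are the 12 largest rises and falls among called genes whose arrays do not overlap, up to 4 called members of each list (then members called with the block), the largest differences from 60 min and from WT, and 26 genes given whatever their value. The 44 lists (697 genes), the named genes and the tests were chosen with earlier results of these data known, and the microRNA loci after their values were seen. A list is described by its counts and median, with no test of its own. Promoter windows and microRNAs were matched by symbol or name to RefSeq tables of GRCm38.p6, with 15614 of the 19938 genes having a window. A gene with several windows was counted as holding a motif where any of them held it.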

Additional observations from a re-analysis of the deposited data

Results flagged for a closer look

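In Ppm1e, Cstad and Il12b, 3 of the named genes, both Y721F series moved one way at 180 min and both WT series the opposite way. How many of all genes did so was not counted. The phosphatase Ppm1e measured 1.31 and 0.78 in the Y721F series, against -0.27 and -0.12 in the WT series, a difference of responses of 1.24 (SE 0.32, limma adjusted p = 1, 0.104 with the series block). Cstad measured -1.05 and -0.64 in Y721F, against 0.16 and 0.04 in WT, a difference of -0.94 (SE 0.30, adjusted p = 1, 0.994 with the block). Il12b, a subunit of interleukin 12, measured 0.02 and 0.11 in Y721F, against -0.09 and -0.14 in WT, a difference of 0.18 (SE 0.15, adjusted p = 1, 0.994 with the block). Each of these changes in Il12b was smaller than that SE, so its opposite signs carry little weight. None of the 3 differences was called.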

How the results depend on the processing

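The count of genes called in Y721F at 180 against 0 min was 52, and 47 after quantile normalization, 54 without genes below the 20th percentile of signal and 51 with the mean of a gene's probe sets. It was 33 with a mean-variance trend (26 higher and 7 lower), 369 when fitted on the Y721F arrays alone, 1050 at the cutoff of the series' design text and 1074 with the series number as a replicate block. Quantile normalization together with the replicate block, an alternative chosen after seeing the data, gave 1081. Leaving out 1 array gave 0 to 86 genes without the block and, with it, 22 and 1164 without the 0 min array of series I and of series II, and 13 and 821 without the 180 min array of series I and of series II, where the lone array left in a group is assumed to vary like those of the other groups. No named gene called with or without the block had the opposite sign under any of these settings, whereas 8 of 124 named genes did (Arg1, Csf1r, Flrt3, Fosb, Il12b, Il1b, Nos2 and Nr4a1), none of them called and each with a change of at most 0.24 in size. For the difference from WT every alternative gave 0 genes except the cutoff of the series' design text, at 72. The 180 against 60 min count of 6 was 121 with the replicate block, 443 at that cutoff and 0 to 17 with 1 array left out, and 6 under the other alternatives. Grown against starved gave 985 genes, 229 to 1230 with 1 array left out and 880 to 1402 otherwise. Quantile normalization moved the median change of all genes by -0.0144 at most. With 2 arrays a group, differences near the 1.5-fold threshold could be called only in genes with little residual spread in the fit. That spread was taken over all groups fitted, and with the block after the difference between series was removed.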

Other observations

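Some further genes that rose in Y721F at 180 min and stand in none of the lists are given here, picked after their values were seen. Gtpbp4, a nucleolar GTPase of large-subunit assembly, read 10.18 and 10.20 at 180 min, against 8.40 and 8.94 at 0 min, and rose by 1.52 (SE 0.25, limma adjusted p = 0.0421). Urb1, Utp15, Esf1 and Isg20l2, which also serve ribosomal RNA processing, rose by 1.25, 1.07, 0.92 and 0.72 (adjusted p = 0.0461, 0.0421, 0.0461 and 0.0364). Of the 26 listed ribosome biogenesis genes 0 were called without the block.

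Vcl, the focal adhesion protein vinculin, read 9.70 and 9.39 at 180 min, against 8.43 and 8.20 at 0 min, and rose by 1.23 (SE 0.20, adjusted p = 0.0421). The heparan sulphate proteoglycan Sdc1 rose by 1.19 (SE 0.15, adjusted p = 0.0178) and the laminin chain Lamc1 by 0.74 (SE 0.13, adjusted p = 0.0461). Serpinb9b, a protease inhibitor of the granzyme-blocking clade, rose by 1.48 and Cflar, the caspase-8 inhibitor FLIP, by 0.80 (adjusted p = 0.0461 and 0.0279). Gpat3, a glycerolipid synthesis enzyme, rose by 0.85, and measured 2.08 in grown against starved cells (adjusted p = 0.0019).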
